A study of Homo sapiens with 2 samples.

Results

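NF-kB is a family of transcription factors that IkB proteins hold in the cytoplasm until a signal has the IkB destroyed. This report describes the transcripts of 10 genes of that circuit in the lung adenocarcinoma line PC9 and in MTAC-P, a line derived from PC9 that resists EGFR tyrosine kinase inhibitors. The genes are 4 subunits (NFKB1, NFKB2, RELA, RELB), 2 IkB inhibitors (NFKBIA, NFKBIE), the ubiquitin-editing enzyme A20 and its binding partner (TNFAIP3, TNIP1) and 2 inhibitor of apoptosis proteins (BIRC2, BIRC3). They were chosen by symbol, with earlier results of these data known. All 10 were found among the 30843 symbols of the tables, through 19 of 65535 listed transcripts.

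Each line had 1 RNA-seq library of total RNA from cells grown in DMEM with serum. PC9 carries an activating EGFR deletion that makes it sensitive to EGFR inhibitors, and MTAC-P was derived from it; the labels give no inhibitor at harvest for either line. Triplicates are mentioned in the series text, yet only 1 column of values exists per line, and the differences described therefore carry no replicate check, standard error or p-value. Whether a lower value reflects fewer cells with a transcript or less RNA per cell cannot be told apart in such bulk libraries.

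As background, NF-kB dimers switch on the genes of several of their own inhibitors, which closes a feedback loop. NFKBIA (IkB-alpha) takes the dimers back out of the nucleus, while A20, helped by TNIP1, removes or edits the ubiquitin chains that carry the signal from the receptors. BIRC2 and BIRC3 (cIAP1 and cIAP2) are ubiquitin ligases at those receptors. In epithelial tumour cells the pathway is known for survival signals and for the secretion of cytokines.

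Values are FPKM, fragments scaled to the length of the transcript and to the mapped fragments of the library, summed over the listed transcripts of a gene. The libraries were compared as the log2 ratio, log2((MTAC-P + 1)/(PC9 + 1)), which understates the difference of low genes, for the 11435 genes whose mean over both libraries reached 1 FPKM. The sums of listed values were 693444 and 685082, PC9 first, of which mitochondrial transcripts made up 23.5% and 20.3%. All 7 epithelial markers were present in both lines, from 35.2 to 2328 FPKM in PC9 and from 35.1 to 2720 in MTAC-P. The 9 leukocyte markers summed to 25.0 and 31.6 FPKM, of which CD68, a lysosomal protein that is not restricted to leukocytes, made up 22.2 and 28.8, while the pan-leukocyte gene PTPRC stood at 0.0910 and 0.0460. ITGAM and MS4A1 were listed at 0 in MTAC-P, and at 0.0090 and 0.0062 in PC9. HLA-DRA (0.733 in PC9 and 1.35 in MTAC-P) and CSF1R (0.136 and 0.610) were higher in MTAC-P. CD14 (1.19 and 0.605), LYZ (0.539 and 0.187) and CD3E (0.0509 and 3e-06) were lower. The 6 fibroblast markers summed to 2.49 and 2.94 and the 4 endothelial markers found, of 5, to 3.42 and 4.23. Most of the endothelial sum was CDH5, at 3.34 and 4.13.

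The kB site is the DNA sequence that NF-kB dimers bind, and 6 of the 10 genes hold a form of it near an annotated start. The letters GGGNNTTTC were searched on both strands in RefSeq promoter windows of GRCh38.p14, each from 250 bases before to 50 after a start. The table held 14 windows for 8 of the genes and none for RELB or NFKBIE. In 7 of the windows there were 11 matches. For each of these windows, 30 bases around the match nearest to the start are shown, because they belong to the inhibitors and subunits whose values follow. Each is written 5′ to 3′ on the strand on which the motif reads GGGNNTTTC, with matches in capitals.
NFKBIA, chr14:35404780-35404809, + strand, opposite to the gene: aaacgctggctGGGGATTTCtctggggcgg
TNFAIP3, chr6:137867189-137867218, - strand, opposite to the gene: ggcccGGGGATTTCcacGGGACTTTCcaaa
TNIP1, chr5:151081057-151081086, - strand, the gene's own: ccagtctccgGGGACTTTCccaggggtggg
NFKB1, chr4:102501300-102501329, + strand, the gene's own: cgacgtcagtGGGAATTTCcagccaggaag
NFKB2, chr10:102394490-102394519, + strand, the gene's own: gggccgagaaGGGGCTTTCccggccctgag
NFKB2, chr10:102395674-102395703, + strand, the gene's own: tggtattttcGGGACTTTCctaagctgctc
BIRC3, chr11:102317276-102317305, - strand, opposite to the gene: caaacccactcGGGGATTTCcatgacccaa

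NFKBIA and NFKB2 held 3 matches each, TNFAIP3 2 side by side, and NFKB1, TNIP1 and BIRC3 1 each. The nearest match began between 21 and 78 bases before the annotated start, except in BIRC3, where it began 198 bases before it. The TNFAIP3 matches lie before the starts of all 4 listed transcripts, but inside a GENCODE exon of the gene, which starts at 137867188. The first of the NFKB2 sites shown also lies in a GENCODE exon of its gene. It is past the start of the listed transcript ENST00000428099 (102394110). In NFKB2 the second of the sites shown lies just before the start of the gene's most abundant listed transcript (102395706). The TNIP1 match does not lie before the start of the transcript that carries nearly all of that gene's listed value: it overlaps the first exon of the low transcript ENST00000389378, whose start is 6074 bases further along the gene.

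The windows of RELA and BIRC2 held no match, which says only that these letters are not in them. The bases just before their GENCODE starts are shown beside those of NFKBIA, on the gene's strand, with any match in capitals (both in NFKBIA read as the reverse complement).
NFKBIA, chr14:35404750-35404869, - strand: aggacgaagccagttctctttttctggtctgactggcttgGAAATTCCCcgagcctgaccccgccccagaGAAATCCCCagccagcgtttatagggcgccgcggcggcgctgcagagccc
RELA, chr11:65663095-65663166, - strand: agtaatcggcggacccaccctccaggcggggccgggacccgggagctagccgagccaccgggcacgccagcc
BIRC2, chr11:102347091-102347210, + strand: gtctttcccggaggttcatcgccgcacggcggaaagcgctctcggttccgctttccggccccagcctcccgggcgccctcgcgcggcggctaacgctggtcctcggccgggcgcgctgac

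Among all windows, 1680 of 35116 windows (4.78%), or 1577 of 27305 genes (5.78%), held the motif. Matches say nothing on binding in these cells.

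**Figure D1:**
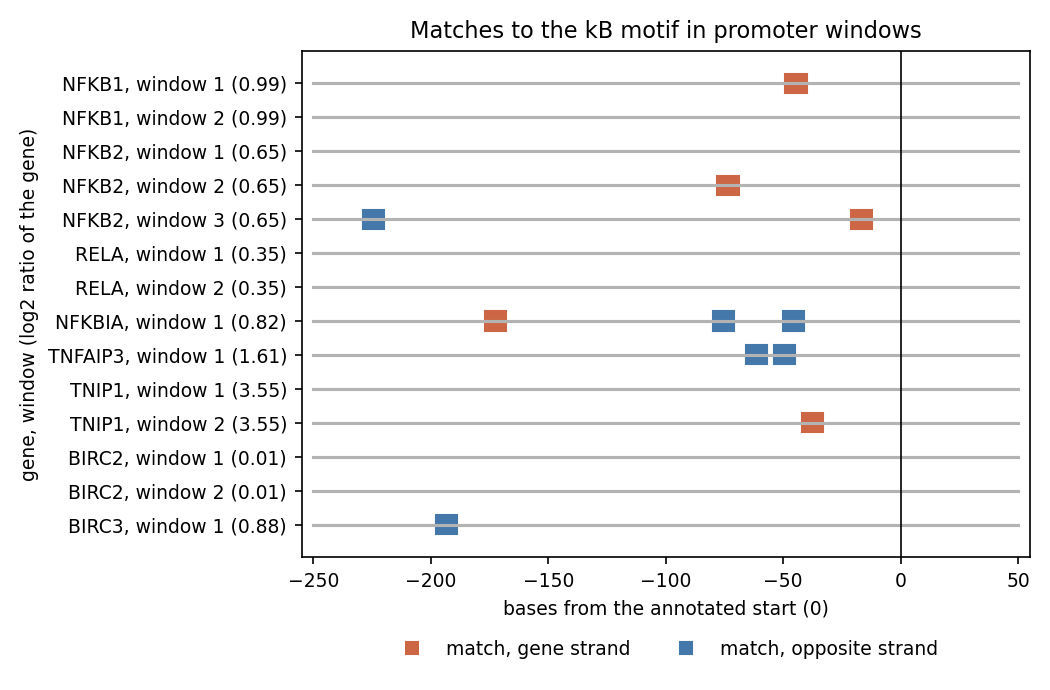
Positions of the motif GGGNNTTTC in the 14 RefSeq promoter windows of 8 genes, in bases from the annotated start, with the gene's log2 ratio in brackets after each name. Orange blocks are matches on the gene's strand and blue blocks on the opposite strand; 7 windows of 6 genes hold a match, and the windows of RELA and BIRC2 hold none.

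All 10 genes had higher values in MTAC-P than in PC9, by log2 ratios from 0.01 for BIRC2 to 3.55 for TNIP1. Of all genes compared, 47.6% lay above 0. The median of the 10 was 0.73, beside -0.02 for all genes compared. Because the 10 were chosen with earlier results known, these figures only describe them. TNFAIP3 and TNIP1 reached 2-fold upward and none reached it downward, beside 3.48% and 4.29% of all genes compared. The largest differences were thus those of the A20 pair, and the smallest those of BIRC2 and RELA.

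**Figure D2:**
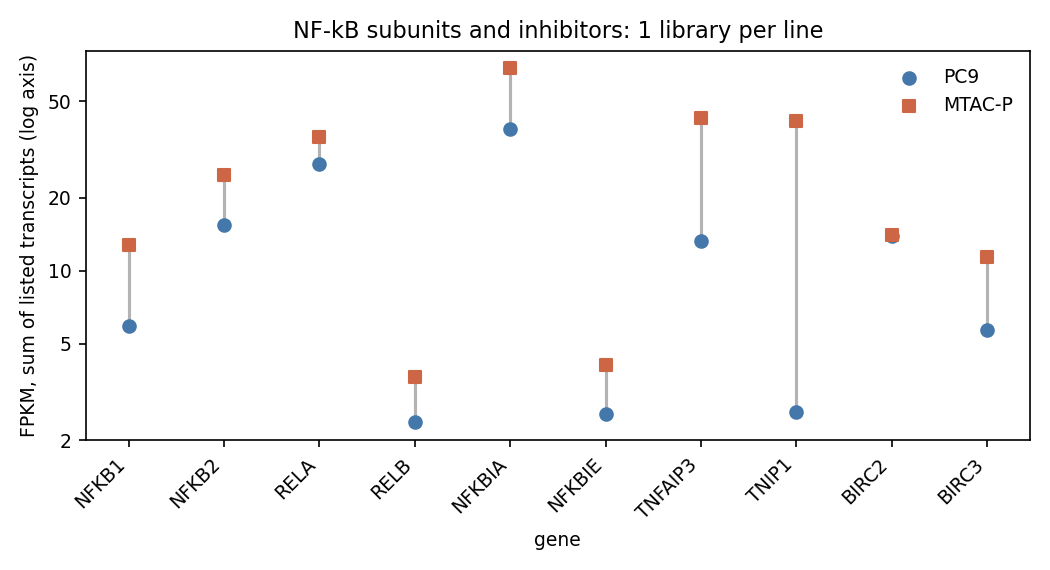
FPKM of the 10 genes in PC9 (blue circles) and MTAC-P (orange squares), on a log axis, each point the sum of the listed transcripts in 1 library. TNIP1 spans the widest gap, from 2.61 to 41.4, and the points of BIRC2 lie on each other at 13.9 and 14.1.

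The subunit genes were higher by modest amounts. NFKB1, whose product p105 is processed to the DNA-binding subunit p50 (chromosome 4, 102501329 to 102617302), stood at 5.93 FPKM in PC9 against 12.8 in MTAC-P, a log2 ratio of 0.99. This was just short of 2-fold on the scale used, for which 12.9 FPKM would have been needed in MTAC-P, and the ratio of the values themselves was 2.16. NFKB2, which encodes p100, the precursor of p52 in the alternative pathway (chromosome 10, 102394110 to 102402529), stood at 15.5 and 24.9, a log2 ratio of 0.65.

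RELA encodes p65, the transactivating subunit of the classical dimer (chromosome 11, 65653596 to 65663094). It stood at 27.5 FPKM in PC9 against 35.4 in MTAC-P, a log2 ratio of 0.35, and 17.4% of all genes compared had a ratio at least as high. RELB, the partner of p52 (chromosome 19, 45001430 to 45038198), was the lowest of the 10 in both lines, at 2.37 and 3.66 FPKM, with a log2 ratio of 0.47. RELA was thus the most abundant subunit in both lines, and NFKB1 had the largest log2 ratio of the 4.

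The IkB genes were also higher. NFKBIA (chromosome 14, 35401511 to 35404749) was the most abundant of the 10 genes in both lines, at 38.3 FPKM in PC9 against 68.2 in MTAC-P, with a log2 ratio of 0.82. NFKBIE, which encodes IkB-epsilon (chromosome 6, 44258166 to 44265788), stood at 2.56 and 4.07, a log2 ratio of 0.51. Of all genes compared, 5.11% had a ratio at least as high as that of NFKBIA and 11.0% as high as that of NFKBIE.

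TNFAIP3 (chromosome 6, 137867188 to 137883312) stood at 13.3 FPKM in PC9 against 42.6 in MTAC-P, a log2 ratio of 1.61, and was the fifth most abundant of the 10 genes in PC9 and next to NFKBIA in MTAC-P. A ratio this high was held by 1.40% of all genes compared. TNIP1, which links A20 to ubiquitin chains (chromosome 5, 151029945 to 151093577), stood at 2.61 and 41.4, a log2 ratio of 3.55, and ranked 13 of 11435 from the highest. In PC9 the listed TNIP1 value was below that of TNFAIP3, and in MTAC-P the sums of the pair were close. The TNFAIP3 sum adds short models, however. Its full-length transcript stood at 24.6 in MTAC-P, against 41.4 for the main TNIP1 transcript.

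The IAP genes lie next to each other on chromosome 11, BIRC3 at 102317450 to 102339403 and BIRC2 at 102347211 to 102378670, on the same strand and 7807 bases apart. BIRC3 stood at 5.72 FPKM in PC9 against 11.4 in MTAC-P, a log2 ratio of 0.88, while BIRC2 stood at 13.9 and 14.1 (0.01). BIRC2 was therefore above BIRC3 in both libraries, by a smaller margin in MTAC-P. Their listed transcripts shared 25 stretches of 36 bases, 0.674% of those of BIRC2 and 0.484% of those of BIRC3, and the labels do not state the read length.

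**Figure D3:**
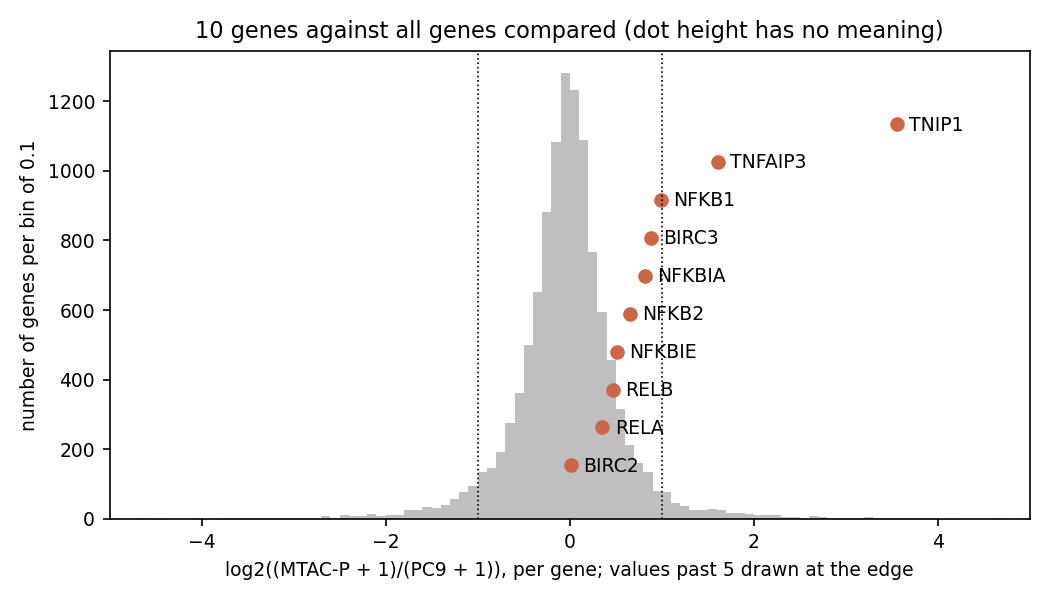
Log2 ratios of the 10 genes (orange dots, whose height has no meaning) over the histogram of all 11435 genes compared, in bins of 0.1; the dotted lines mark 2-fold. The dots run from 0.01 for BIRC2, near the middle of the histogram, to 3.55 for TNIP1, in its upper tail.

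The tables end at transcript number 437205, so every one of the 10 genes was listed with only a part of its coding transcripts in GENCODE release 29. For TNIP1 2 of 15 were listed, for RELA 2 of 13, for TNFAIP3 4 of 10, for BIRC2 1 of 9, for NFKB1 2 of 8, for NFKB2 3 of 5, for NFKBIA, RELB and BIRC3 1 of 4 each, and for NFKBIE 1 of 3. The remaining transcripts were not analysed here, and a difference in a gene's listed value can be a shift between its transcripts. Among genes compared, 5.75% of the 2538 with all coding transcripts listed were at 2-fold either way. The share was 6.26% for the 7063 with a part listed, and 7.77% for all genes compared. Genes with no listed coding transcript under their symbol in GENCODE are in neither group but count in the 7.77%.

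The TNIP1 difference came from 1 transcript. ENST00000315050, of 2785 bases and 18 exons, starts at 151087158 and stood at 2.33 FPKM in PC9 against 41.4 in MTAC-P (log2 ratio 3.67), a ratio exceeded by 62 of the 19406 transcripts with a mean of at least 1. ENST00000389378, which starts at 151081084, stood at 0.280 and 0.0117. The share of the listed TNIP1 value carried by ENST00000315050 was 89.3% in PC9 and 99.97% in MTAC-P. With 13 coding transcripts of the gene outside the tables, whether total TNIP1 RNA differed as much was not tested.

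For TNFAIP3 the full-length transcript carried the difference together with shorter models. ENST00000237289, with 9 exons and 4432 bases, stood at 7.70 FPKM in PC9 against 24.6 in MTAC-P (log2 ratio 1.56), and its share of the gene's listed value was 57.9% and 57.8%. Among the short models that cover only the start of the gene, ENST00000420009 (698 bases) stood at 2.55 and 13.2 (2.001) and ENST00000421450 (421 bases) at 2.04 and 4.74 (0.92). ENST00000433680 (465 bases) went the other way, at 1.01 in PC9 against 1e-06 in MTAC-P, which is in effect 0. The listed exons overlap 95 bases of AL357060.1, a gene on the opposite strand, and the sources used here do not state whether counting used the strand.

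NFKB1 and RELA were each carried by their main transcript. ENST00000226574 of NFKB1 stood at 5.34 FPKM in PC9 against 12.5 in MTAC-P (log2 ratio 1.09), past 2-fold, while ENST00000394820, similar in structure, stood at 0.584 and 0.289. ENST00000406246 of RELA stood at 26.8 and 33.3 (0.30) and made up 97.3% and 94.0% of the listed value; ENST00000308639 stood at 0.729 and 2.14 (0.86). On the scale used here, NFKB1 thus passes 2-fold without its minor transcript and misses it with that transcript added.

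The NFKB2 transcripts differed among themselves. ENST00000189444 stood at 6.47 FPKM in PC9 against 12.3 in MTAC-P (log2 ratio 0.83), ENST00000428099 at 4.07 and 6.57 (0.58), and ENST00000369966 at 0.731 and 1.77 (0.68). These 3 have 23 exons each and differ in where they start. ENST00000336486, a fragment of 851 bases that GENCODE calls a processed transcript and the tables call coding, stood at 4.19 and 4.22 (0.01). Its share of the gene's listed value was 27.1% in PC9 against 17.0% in MTAC-P, and the log2 ratio of the GENCODE coding transcripts alone was 0.82.

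Of the 19 transcripts, 16 lay above 0 and 3 below. Those below 0 were ENST00000394820 of NFKB1 (-0.30), ENST00000389378 of TNIP1 (-0.34) and ENST00000433680 of TNFAIP3 (-1.01), and none of these had a mean of 1 FPKM. In all, 4 transcripts reached 2-fold upward (those of TNIP1 and NFKB1 named above and 2 of TNFAIP3), beside 2.81% of the 65535 listed transcripts and 7.76% of the 19406 with a mean of at least 1. ENST00000433680 reached 2-fold downward, beside 3.29% and 8.88%. A mean can pass or miss 1 FPKM because of the difference itself, so the counts are given over all 19. NFKBIA, NFKBIE, RELB, BIRC2 and BIRC3 had 1 listed transcript each, so their transcript and gene values are the same.

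**Figure D4:**
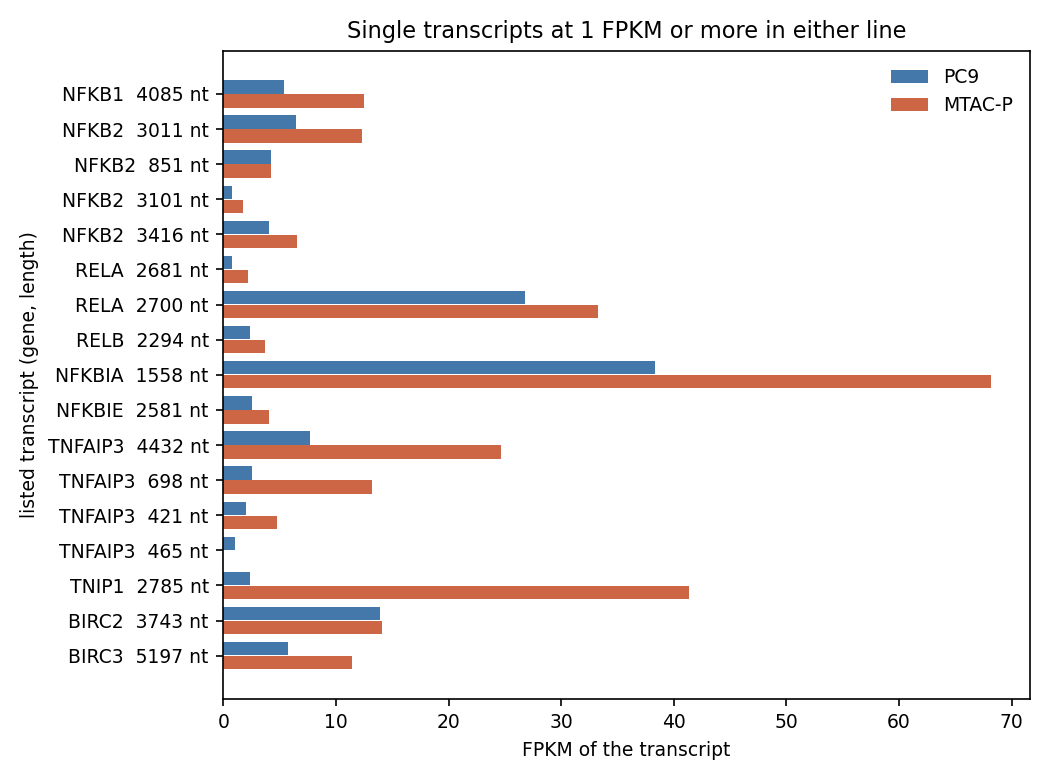
FPKM of the 17 transcripts with at least 1 FPKM in either line, in PC9 (blue) and MTAC-P (orange), labelled by gene and length. The TNIP1 transcript of 2785 nt shows the widest gap, and the 851 nt NFKB2 fragment and the BIRC2 transcript show almost equal bars.

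The other genes of the pathway were taken from 6 lists with 64 genes, of which 55 were compared. These lists were chosen with earlier results of these data known, so their counts are no independent check. Together 37 lay above 0, 9 reached 2-fold upward and 1 downward, with a median log2 ratio of 0.23. Over all genes compared, 47.6% lay above 0, 3.48% reached 2-fold upward and 4.29% downward. Of the 9 genes, 8 were secreted or surface targets. Because the difference itself can carry a low gene past the mean of 1 FPKM or keep it out, counts over all 64 genes follow: 43 lay above 0, 10 reached 2-fold upward and 1 downward, with a median of 0.19. The gene added is TRAF6, an adaptor of interleukin-1 and Toll-like receptors, at 0.000151 and 1.64 FPKM (1.40), named after its value was seen.

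All 5 other subunits and IkB proteins lay above 0, with a median of 0.30 and none at 2-fold. BCL3, a nuclear IkB protein that acts with p50 and p52, stood at 5.32 FPKM in PC9 against 9.75 in MTAC-P (0.77), NFKBIZ, another nuclear IkB protein, at 9.46 and 13.2 (0.44), and NFKBIB, which encodes IkB-beta, at 13.8 and 17.2 (0.30). REL, the remaining subunit gene, stood at 2.47 and 2.53.

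Among the 11 kinases and kinase partners upstream of IkB, 7 lay above 0, none was at 2-fold and the median was 0.11. TAB3, an adaptor of the kinase TAK1, had a log2 ratio of 0.49, CHUK, which encodes the IkB kinase subunit IKK-alpha, 0.27, and MAP3K14, which encodes the kinase NIK of the alternative pathway, -0.36. Of 9 adaptors and TRAFs compared, 5 lay above 0 and none was at 2-fold (median 0.20); over all 11 of that list 7 lay above 0, and TRAF6 was at 2-fold. TRAF2, the adaptor that recruits the cIAPs to TNF receptors, stood at 12.8 and 21.3 FPKM (0.69), BCL10, a scaffold of the CARD-BCL10-MALT1 complex, had a ratio of 0.68 and TRADD, an adaptor of TNF receptor 1, of -0.44.

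Of 11 genes of ubiquitin editing and decay compared, 5 lay above 0, with a median of -0.00 and 1 at 2-fold. That gene was ZC3H12A, which encodes the ribonuclease regnase-1 and stood at 12.0 FPKM in PC9 against 25.2 in MTAC-P (1.01). RNF11, a partner of A20, had a log2 ratio of 0.48 and the deubiquitinase OTUD7B 0.46. TNIP2, a relative of TNIP1, stood at 7.86 and 5.90 (-0.36). The 3 other IAP genes compared all lay below 0, XIAP at -0.08, BIRC5 (survivin) at -0.18 and BIRC6 at -0.36.

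Secreted and surface targets of NF-kB showed the largest values. Of the 16 genes compared, 15 lay above 0, with 8 at 2-fold or more upward and 1 downward. Among all genes compared, 3.48% were at 2-fold upward and 4.29% downward. The median of the list was 1.004, beside 0.73 for the 10 genes. These counts include SOD2, a mitochondrial enzyme that is neither secreted nor on the surface, at 34.5 and 61.0 FPKM (0.81). Over all 20 of the list 18 lay above 0, with the same counts at 2-fold and a median of 0.86. PTX3, at 0.786 and 3.68 FPKM, and IL1A, at 0.594 and 1.92, passed the mean of 1 through MTAC-P, and CXCL3, at 1.07 and 0.708, did not pass it. The acute-phase gene SAA1, which has a near-identical copy, had a log2 ratio of 2.18, LCN2 (lipocalin 2, which binds iron carriers of bacteria) of 2.10 and complement C3, at 18.8 and 62.1 FPKM, of 1.68. The 1 gene at 2-fold downward was LTB (lymphotoxin beta), at 1.75 and 0.258 FPKM (-1.13), which passed through PC9. The LTB value sums 5 listed transcripts, of which GENCODE calls 1 coding. With a pseudocount of 5, a mean of at least 5 or the most abundant transcript only, no pathway gene was at 2-fold downward. With coding transcripts only, 1 was. LTB, like the other values near 1 FPKM, has no known depth behind it.

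**Figure D5:**
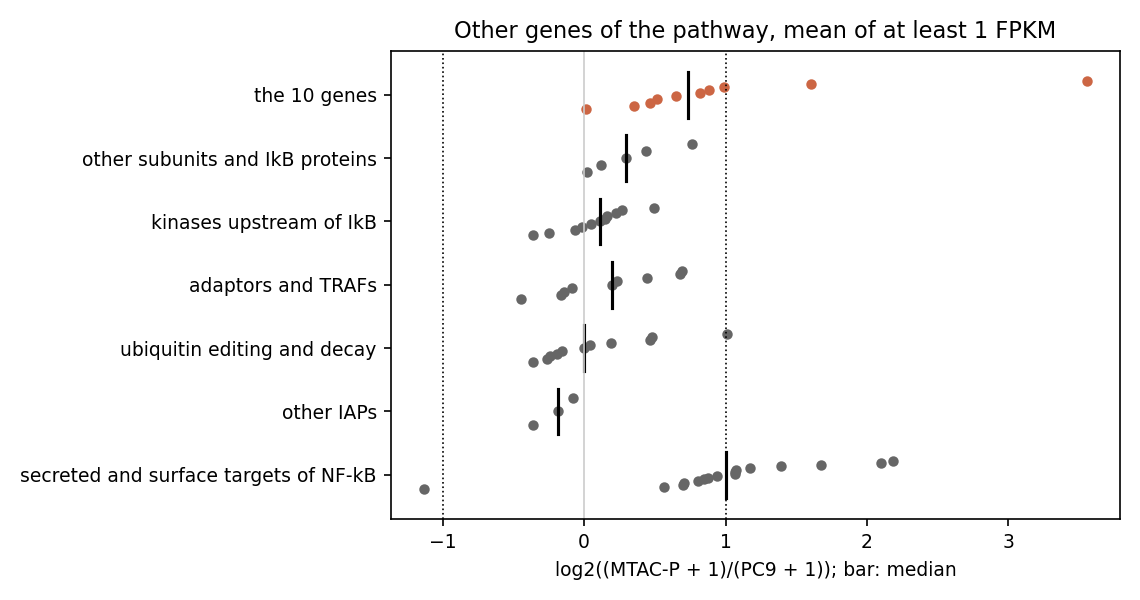
Log2 ratios of the 10 genes (orange) and of 6 lists of other genes of the pathway (grey), for genes whose mean reached 1 FPKM; black bars are medians, dotted lines 2-fold. The list of secreted and surface targets is centred at 1.004, while the lists of kinases, adaptors, ubiquitin genes and other IAPs have medians between -0.18 and 0.20.

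The 6 genes with the kB letters in a promoter window had a median log2 ratio of 0.94, and RELA and BIRC2, which had windows without them, stood at 0.35 and 0.01. TNIP1 is among the 6, although the start of ENST00000315050, which carries nearly all of its listed value, lay in none of the windows searched. RELB (0.47) and NFKBIE (0.51) had no window. The motif was chosen after values had been seen, and whether it bears on them was not tested. Of the 541 genes compared that held the motif, 2.96% were at 2-fold upward and 3.14% downward, with a median of -0.03, beside 2.56% and 3.26% and a median of -0.02 for the 7451 genes without it; the 3443 genes compared that had no window under their symbol were left out. Without the 10 genes and the pathway lists, the 524 remaining genes with the motif had a median of -0.04. In the pathway lists the 11 compared genes with the motif had a median of 0.30, among them CCL20 (1.07) and LTB (-1.13), and the 36 without it 0.21, among them LCN2 and ICAM1 (1.17). The 8 pathway genes with no window, SAA1 and C3 among them, had a median of 0.08.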

How the data were processed

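RNA-seq libraries of PC9 and MTAC-P, 1 each, were described. The authors deposited 1 value per transcript, taken as FPKM because the submitters' processing notes name Trim Galore, TopHat and Cufflinks, with build hg38; versions, annotation release, strandedness and pooling are not given in the sources used here, and the table headers give no unit. Without counts, depth is unknown and no interval can be given. Each table has 65536 lines with its header, and later transcripts were not analysed here.

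Transcripts were summed by symbol, genes with a mean of at least 1 were compared with a pseudocount of 1, and 2-fold was the call (Python 3.11.15, pandas 2.3.3, numpy 2.4.6). The arithmetic of these steps was checked on simulated data without noise, which says nothing on the precision of the values. GENCODE release 29 (GRCh38) gave coordinates and types for 55397 of the listed IDs (84.5%), and for all 19 described; promoters came from RefSeq (GRCh38.p14). The members, lists, alternatives and the rule for named genes (all 10 genes, their transcripts at 1 FPKM or more in either line, and the 3 largest absolute log2 ratios per pathway list) were chosen with earlier results of these data known. Other genes were named after their values were seen. The motif was also chosen then. 1 marker of the leukocyte list is not reported here.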

Additional observations from a re-analysis of the deposited data

How the results depend on the processing

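The alternatives were a pseudocount of 0.1 or 5, dropping the filter or raising it to a mean of 5, a common sum, centring, thresholds of 1.5-fold and 4-fold, GENCODE coding transcripts only, the most abundant transcript only and, added after seeing the data, scaling MTAC-P on the sum without mitochondrial genes. TNIP1 was at least 2-fold higher in each of them (2.61 to 3.94), and TNFAIP3 (1.38 to 1.67) passed every threshold but 4-fold. NFKB1 also reached 2-fold with a pseudocount of 0.1 (1.10), a common sum (1.04), centring (1.01) and the most abundant transcript (1.09). BIRC2 was below 0 only when MTAC-P was scaled without mitochondrial genes (-0.02), and the other 9 genes lay above 0 wherever they were compared. The members' median was 0.76 with a pseudocount of 0.1, a common sum or centring, 0.58 with a pseudocount of 5, 0.85 over the 8 genes at a mean of at least 5, 0.82 with coding transcripts only, 0.83 with the most abundant transcript and 0.69 without mitochondrial genes. At 1.5-fold 6 members, 19 pathway genes and 2307 genes in all counted, and at 4-fold 1 member, 2 pathway genes and 174 in all, by construction of the threshold. The 888 genes at 2-fold (398 higher, 490 lower) became 1344 (569, 775) with a pseudocount of 0.1, 284 (140, 144) with 5 and 431 (206, 225) at a mean of at least 5, where fewer genes were compared. With a pseudocount of 5, 4 pathway genes counted in place of 10. A larger pseudocount shrinks the ratios of low genes by construction. The common sum raised all values, so it also acts as a lower filter and pseudocount. No paired analysis was possible because neither line has more than 1 library, and for the same reason no replicate could be left out. Depth is unknown, so RELB, NFKBIE and other genes of a few FPKM cannot be given a precision.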
